A study of Drosophila melanogaster with 5 samples.

Results

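The c-Jun N-terminal kinase (JNK) pathway of Drosophila was followed in larval hemocytes, the blood cells of the fly, through 9 genes: the ligand egr, its receptor wgn, the kinases slpr, hep and bsk, the AP-1 subunits Jra and kay, and the outputs puc and Mmp1. The members were the probe sets that the platform annotation maps to exactly 1 of these genes, which gave 14 probe sets for 8 genes, of 13647 probe sets for 11982 genes in all. Mmp1, which encodes a secreted matrix metalloproteinase, has no probe set of its own in that annotation and is not analysed here. Of the 14 probe sets, 11 lay above the highest Bacillus control probe set (a bacterial sequence that measures background) on all 5 arrays, and each of the 8 genes had at least 1 such set. The 3 others, 1 each of bsk, kay and egr, lay below that control on every array and were read as background.

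Hemocytes were taken from larvae of the third instar, and each array held the RNA of 200 to 300 larvae of 1 stock, so there was 1 array per group. The 4 mutant stocks were spen(GE10359), a loss-of-function line with a P-element in an untranslated region of spen, E(spl)rvl (BL199) and Su(H)l(417) (BL417), both labelled loss of function, and BL1564, labelled EGFR gain of function. The control strain was W1118. No allele is named for BL1564, and the labels do not say whether the larvae of any stock were homozygous or which background the stocks share. Each level below is a log2 level as deposited, and each difference is mutant minus control on the log2 scale, on which 1 is a 2-fold difference. With 1 array per group there is no error between larvae and no test, so the values describe these arrays.

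In this pathway Eiger (egr), the fly member of the tumour necrosis factor family, binds the receptors Wengen (wgn) and Grindelwald (grnd). The signal passes through a chain of kinases, in which Slipper (slpr), a mixed-lineage kinase, acts on Hemipterous (hep), which phosphorylates the JNK Basket (bsk). JNK then acts on the AP-1 transcription factor, a dimer of Jun (Jra) and Fos (kay), and among the AP-1 targets is puckered (puc), a phosphatase that acts back on JNK. The pathway is known for wound closure, for cell death and, in fly blood, for the formation of lamellocytes, the large flat cells that wrap foreign bodies.

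All arrays had a clear blood cell signal. The 8 plasmatocyte markers, among them Hml and NimC1, lay above the Bacillus controls on every array, and none passed 2-fold in any mutant. Array medians were 4.46 to 4.54 and the highest Bacillus control was 4.28 to 4.78. Crystal cell and lamellocyte markers were higher than in the control for E(spl), for Su(H) and for EGFR, with 3 of 6 crystal cell markers (and CG17109 lower in EGFR) and 5, 5 and 4 of 7 lamellocyte markers past 2-fold in that order. Signal of other tissues was present: all 5 salivary gland genes above the level filter were higher in spen, and all 4 fat body genes above it were lower in EGFR. In E(spl) 3 of these 4 fat body genes and 4 of the 5 salivary gland genes were lower. The muscle genes Mlc1, Tm2 and up were higher in both E(spl) and Su(H), by 3.35 to 3.81 log2 units. The gut protease genes Jon99Fi and Jon66Ci were higher in Su(H), by 6.45 and 2.53. The other measured gut genes did not follow: thetaTry was lower past 2-fold in every mutant (−1.78 in Su(H)), and alphaTry differed by 0.10 in Su(H). The mean excess of the 3' over the middle probe sets of 3 quality genes (actin, eIF-4a, GAPDH), a measure of RNA quality and of amplification from the 3' end, was 1.74 log2 units for spen, 2.14 for E(spl), 2.59 for Su(H) and 1.90 for EGFR, against 1.57 for the control.

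Of the 8 measured genes, 1 passed 2-fold against the control in any mutant: wgn, the Eiger receptor, was lower in EGFR. The ligand egr also passed it in EGFR, but only by the brighter of its 2 probe sets and not by their mean. Probe sets of a gene were averaged, and the gene was counted when its difference was at least 1 in size and its level on either array reached 4.50, the median of all levels. All 8 genes passed that level filter in all 4 comparisons. In spen 0 of 8 genes passed 2-fold, where 17.3% of all genes tested did. For E(spl) it was 0 of 8 against 21.9% of all genes, for Su(H) 0 of 8 against 21.9%, and for EGFR 1 of 8 against 14.9%. The 8 genes had a median difference of 0.19 for spen, 0.14 for E(spl), 0.15 for Su(H) and 0.17 for EGFR, beside medians of all genes tested of 0.04, 0.01, −0.03 and −0.01. With the brightest probe set of each gene the median was 0.48 for E(spl) and 0.27 for EGFR. The size of the small positive medians thus depends on the choice of probe set. With the other 3 mutants averaged as reference, the medians were 0.12 for spen, 0.040 for E(spl), −0.017 for Su(H) and −0.032 for EGFR. Under that reference the 4 differences of each gene sum to 0 by construction. These medians therefore cannot show whether those against the control hold. The 4 comparisons with the control share its array, so a level peculiar to that array would enter all of them.

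**Figure D1:**
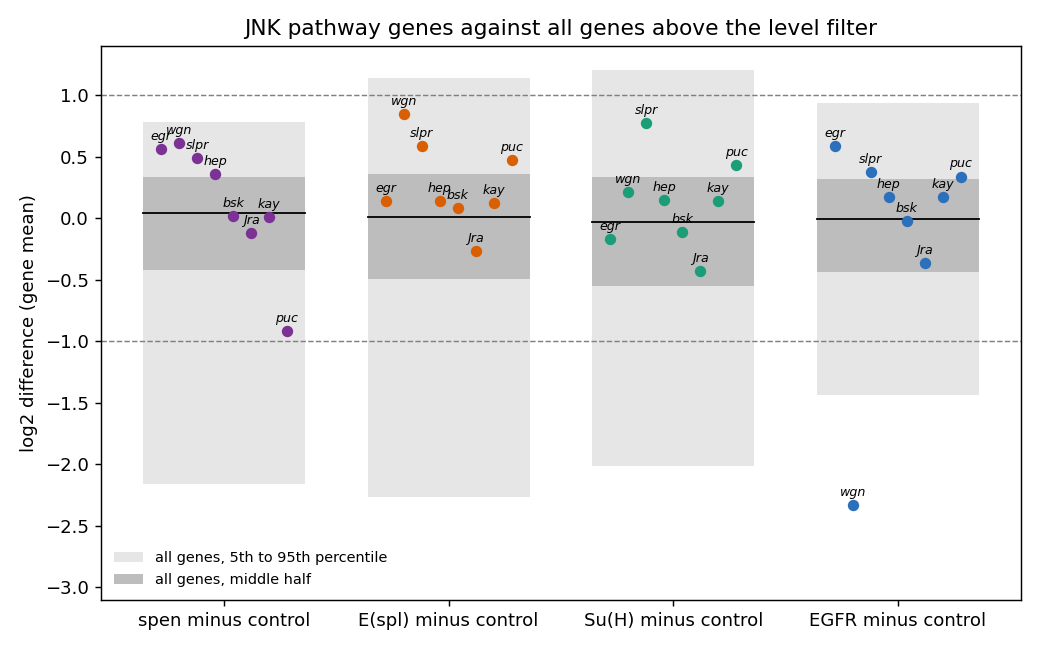
Mean log2 difference (mutant minus control) of the 8 measured JNK pathway genes, drawn as points for each mutant array, over the 5th to 95th percentile (light) and the 25th to 75th percentile (dark) of all genes above the level filter, with their median as a line. The points stay between the dashed 2-fold lines except wgn in EGFR, at −2.33, and puc in spen comes nearest to the lower line at −0.91.

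The receptor gave the widest spread among the measured member genes. wgn (probe set 1636274_at) stood at 7.76 in spen, at 7.99 in E(spl), at 7.35 in Su(H) and at 4.81 in EGFR, against 7.14 in the control. The EGFR array alone was low, and the other 3 mutants lay above the control. In EGFR wgn was 5.03-fold lower than in the control, the 84th lowest difference of 8017 genes tested. Differences of probe sets of 1 gene, the only spread these data offer, had a pooled SD of 0.58 in that comparison. The wgn difference of −2.33 was larger than 2 such SDs (1.17). This spread compares probe sets on the same pair of arrays and holds no variation between larvae or arrays. Here and below it therefore cannot judge a difference between stocks. The level of 4.81 was still above the highest Bacillus control of the EGFR array, 4.40.

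The low wgn level in EGFR did not depend on the control array. Relative to the other mutants, wgn in EGFR was 7.69-fold lower than in spen, 9.06-fold lower than in E(spl) and 5.82-fold lower than in Su(H). In these comparisons 7.45%, 4.98% and 5.35% of all genes tested were lower by 2-fold. The differences in spen (0.61), E(spl) (0.85) and Su(H) (0.21) against the control were within 2 pooled SDs of probe sets (1.02, 1.17 and 1.23). Only 1 probe set reads wgn, so no other set of the gene was at hand. Of the protein-coding genes next to wgn in the gene table, looked up after its values were seen, Rip11 was at 10.82 in EGFR and 11.42 in the control, and CG15040 was at 4.33 and 3.68, not above background on either array.

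Several marker lists differed on the EGFR array, and their part in the wgn difference was not tested. In RNA from many cells, fewer cells of a type and less RNA per cell cannot be told apart. The summed log2 level of the 5 measured fat body markers stood at 47.32 for spen, at 42.82 for E(spl), at 44.97 for Su(H) and at 39.72 for EGFR, against 50.74 in the control, with Yp1 below the Bacillus controls on every array. Fbp1, a fat body protein gene, differed by −3.52 in EGFR, and by −4.92 in E(spl) and −4.37 in Su(H). The other 3 differed in EGFR by −2.80 (Fbp2), −2.72 (apolpp, the lipid carrier gene) and −2.08 (Lsp2). In the same order they differed by −0.22, −1.27 and −1.36 in E(spl). In Su(H) they differed by 0.19, −0.97 and −0.66, all under 2-fold. The 7 lamellocyte markers summed to 66.22 in EGFR and 54.82 in the control, and the 6 crystal cell markers to 70.92 and 63.91. For E(spl) the lamellocyte sum was 65.23 and for Su(H) 71.28. The 8 plasmatocyte markers summed to 103.03 in EGFR and 101.72 in the control, with 0 past 2-fold.

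**Figure D2:**
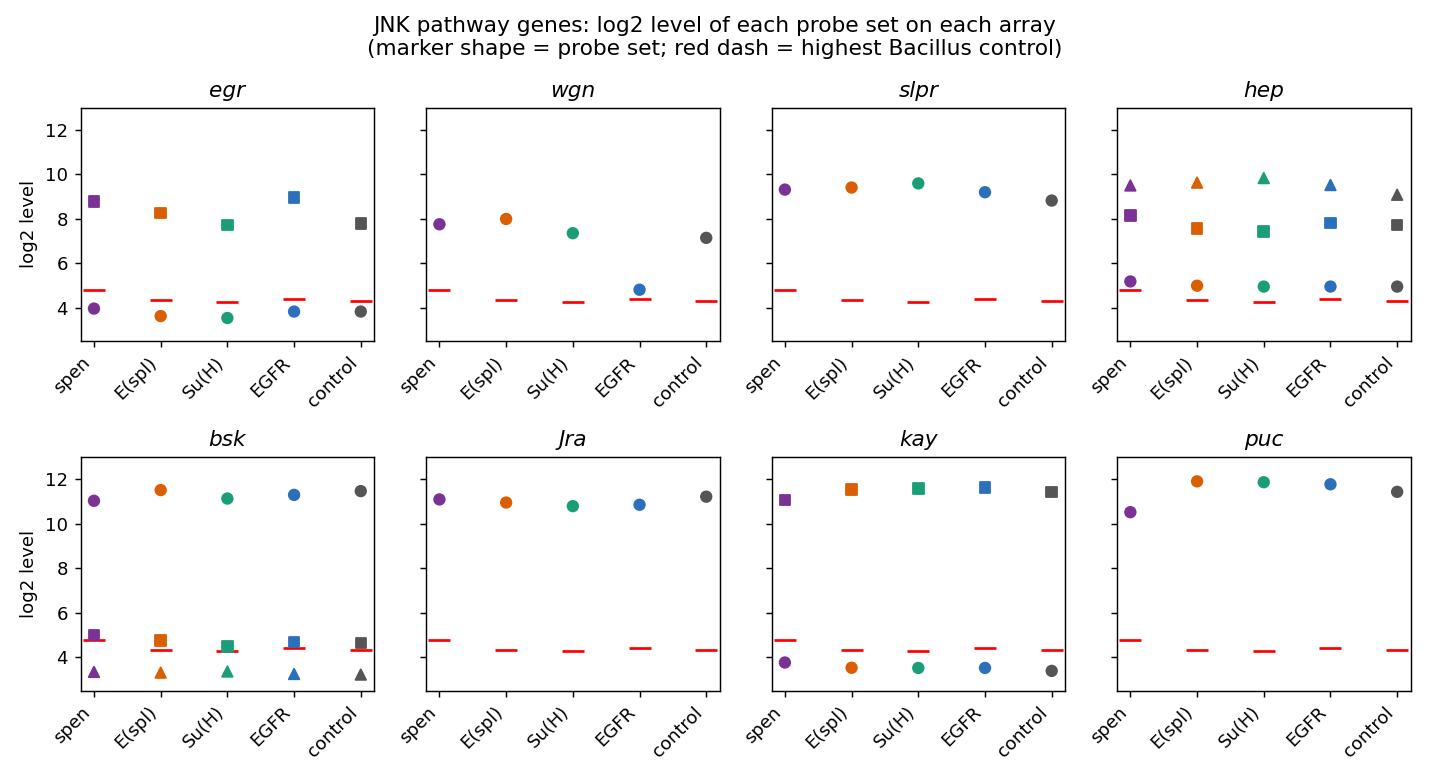
Log2 level of every probe set of the 8 genes on the 5 arrays, mutants left of the control, with 1 marker shape for each probe set and the highest Bacillus control of each array as a red dash. wgn lies near the Bacillus control only on the EGFR array (4.81), puc is lowest in spen (10.52), and 1 set each of bsk, kay and egr lies below the Bacillus control on every array.

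The ligand was read by 2 probe sets of egr, of which only 1639671_at lay above background. It stood at 8.77 in spen, at 8.26 in E(spl), at 7.73 in Su(H) and at 8.96 in EGFR, against 7.79 in the control. EGFR and spen were high, E(spl) was between, and Su(H) lay at the control level. The set was 2.26-fold higher in EGFR than in the control, a difference of 1.18, just over 2 pooled SDs (1.17). In spen it was 1.98-fold higher, a difference of 0.98, within 2 pooled SDs (1.02). The second set, 1629442_at, was at 3.54 to 3.97 in the mutants and 3.83 in the control, below the Bacillus controls on all arrays. With both sets averaged, egr differed by 0.59 in EGFR and 0.56 in spen and was not counted as past 2-fold, so the call for egr depends on the set at background. On the EGFR array the ligand was thus high in its readable set and its receptor wgn low. grnd, the other Eiger receptor, lay between 3.07 and 3.27 in the mutants and at 3.22 in the control, below the Bacillus controls on every array.

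The kinases stayed under 2-fold in every mutant. slpr, the mixed-lineage kinase at the head of the chain (1637966_at), stood at 9.31 in spen, at 9.41 in E(spl), at 9.59 in Su(H) and at 9.20 in EGFR, against 8.82 in the control. The control array was the lowest, and the differences of 0.49, 0.59, 0.77 and 0.38 were within 2 pooled SDs in each comparison. In size these differences exceeded those of 62.1%, 62.8%, 70.2% and 50.6% of all genes tested. The excess of the 3' over the middle probe sets of the quality genes was also above the control on all 4 arrays, by 0.16 for spen, 0.57 for E(spl), 1.02 for Su(H) and 0.33 for EGFR, and its part in the slpr differences was not tested.

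hep, the kinase that activates JNK, was read by 3 probe sets that did not agree in Su(H) and E(spl). The brightest, 1634949_at, stood at 9.50 in spen, at 9.63 in E(spl), at 9.83 in Su(H) and at 9.52 in EGFR, against 9.08 in the control. The second, 1626465_a_at, stood at 8.16, 7.57, 7.42 and 7.81 in the same order, against 7.73 in the control. The control was lowest by the first set, and Su(H) was lowest by the second. In Su(H) the sets thus differed from the control by 0.75 and −0.30, and in E(spl) by 0.55 and −0.16. In spen both were higher, by 0.42 and 0.43. The third set, 1623804_a_at, was at 4.95 to 5.19 in the mutants and 4.95 in the control. The 3' excess of the quality genes was furthest above the control in Su(H) (1.02) and E(spl) (0.57), where the sets disagreed. Its part in that disagreement was not tested.

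bsk, the JNK itself, was close to its control level on every array. Its bright set, 1625533_at, stood at 11.03 in spen, at 11.51 in E(spl), at 11.13 in Su(H) and at 11.30 in EGFR, against 11.47 in the control. spen was the lowest array, at a difference of −0.44. A second set, 1626404_a_at, was the other way round in spen, 0.36 above the control, and lay just above the Bacillus controls. The third, 1634580_at, was at 3.25 to 3.36 in the mutants and 3.22 in the control, below them.

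Both AP-1 subunits also stayed near their control level. Jra, the fly Jun (1635224_s_at), stood at 11.09 in spen, at 10.95 in E(spl), at 10.79 in Su(H) and at 10.85 in EGFR, against 11.22 in the control. The control was the highest array, and the differences ran from −0.43 to −0.12. Its range over the 5 arrays, 0.43, was smaller than that of all but 14.8% of the probe sets that reached the level filter on some array. The suffix _s_at of this set, and of those of wnd and scaf below, marks probes that may also match other sequences. kay, the fly Fos (1640886_a_at), stood at 11.07 in spen, at 11.53 in E(spl), at 11.58 in Su(H) and at 11.63 in EGFR, against 11.43 in the control. Here spen was the lowest, at −0.36, and the other mutants lay 0.10 to 0.21 above the control. The second kay set, 1636185_at, was at 3.52 to 3.76 in the mutants and 3.39 in the control, below background.

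puc, the JNK phosphatase that is often used as a readout of the pathway, was low in spen. Its set, 1631765_at, stood at 10.52 in spen, at 11.91 in E(spl), at 11.87 in Su(H) and at 11.77 in EGFR, against 11.43 in the control. The spen array alone lay below the control, by 1.88-fold (a difference of −0.91), and the other 3 lay above it, by 0.47, 0.43 and 0.34. The spen difference was within 2 pooled SDs of probe sets (1.02). Once the arrays were quantile-scaled again it was just past 2-fold. Between mutants, where the control array plays no part, puc in spen was 2.61-fold lower than in E(spl) and 2.54-fold lower than in Su(H), where 9.94% and 9.7% of all genes tested were lower by 2-fold. In EGFR it was 2.38-fold higher than in spen, where 12% of all genes tested were higher by 2-fold. The first of these differences (−1.39) was larger than 2 pooled SDs of its comparison (1.30), and the others (−1.35 and 1.25) were not (1.43 and 1.33). All 3 subtract the 1 spen array, so they are not independent of each other.

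Marker genes of other cells differed on the spen array as well, and their part in the puc difference was not tested. The 6 crystal cell markers summed to 56.26 in spen and 63.91 in the control, with lz below the Bacillus controls on both. Most of that gap was CG17109, which differed by −5.52, while PPO1 (−0.43), PPO2 (−0.71), peb (−0.81) and CG7860 (0.53) stayed under 2-fold. The 8 plasmatocyte markers summed to 98.93 in spen and 101.72 in the control. The 6 salivary gland genes summed to 61.56 in spen and 38.05 in the control. The 7 lamellocyte markers summed to 56.01 in spen and 54.82 in the control.

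**Figure D3:**
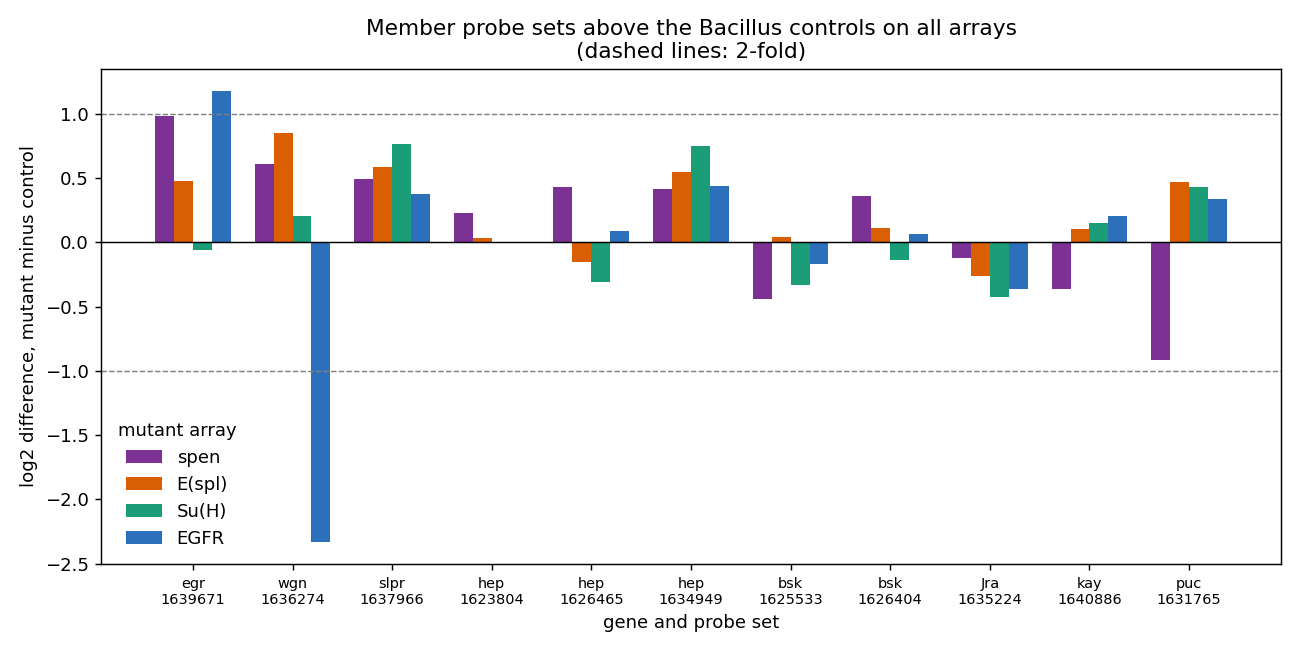
Log2 difference (mutant minus control) of the 11 member probe sets above the Bacillus controls on all arrays, with 1 bar for each mutant array, ordered from ligand and receptor to outputs. The bars for wgn (−2.33) and egr (1.18) in EGFR pass the dashed 2-fold lines, and those of hep point in opposite directions between its sets in E(spl) and Su(H).

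Counted by probe set, most of the 11 sets above background thus varied less across the 5 arrays than a typical probe set. The range from the lowest to the highest array was below 0.86, the median range of 9122 probe sets that reached the level filter on some array, in 8 of the 11 bright sets. It was 3.18 for wgn, larger than that of 96.0% of those probe sets, 1.39 for puc (73.2%) and 1.23 for egr (68.4%). In 6 of the 11 sets every mutant differed from the control by less than 0.5 log2 units. Ranges depend on brightness as well, since dim sets vary little, and 1626404_a_at (bsk) and 1623804_a_at (hep) lay close to background. The sets are also not independent, since hep and bsk were each counted by more than a single set. The counts and shares are a description only.

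By nearness of the 4 differences, 3 genes came closest to wgn among 8418 genes that reached the level filter on some array. The measure was the root mean square distance over the 4 mutant minus control differences. CAH1, a carbonic anhydrase gene, was nearest at 0.31, with 5.55 in EGFR and 7.79 in the control. IKKbeta, a kinase gene, followed at 0.47, with 6.12 in EGFR and 8.26 in the control, and Brf, a gene of the RNA polymerase III machinery, at 0.48, with 6.06 and 7.60. All 3 were lower in EGFR and close to or above the control in spen, which follows from choosing them by nearness to wgn. In E(spl) CAH1, IKKbeta and Brf differed by 1.10, 1.04 and 0.53, beside 0.85 for wgn. In Su(H) they differed by 0.27, −0.62 and 0.52, beside 0.21 for wgn, so IKKbeta went the other way there. All 4 differences subtract the same control array.

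The rest of the pathway was read from further lists of 61 genes, of which 44 had probe sets of their own. Of the 34 to 36 of these above the level filter, 2 were higher and 2 lower by 2-fold in spen, where 2.7% and 14.6% of all genes were. For E(spl) it was 3 higher and 2 lower, against 6.49% and 15.4% of all genes, and for Su(H) 4 and 1, against 6.98% and 14.9%. The 4 include Duox, whose control level was below background, and without it 3 were higher. For EGFR it was 0 higher and 2 lower, against 4.37% and 10.5%. In both directions together the listed genes past 2-fold made up 11.8%, 14.3%, 13.9% and 5.71%, beside 17.3%, 21.9%, 21.9% and 14.9% of all genes. These shares rest on 2 to 5 genes per comparison and are a description only. For the higher genes alone the share was not below that of all genes in spen, E(spl) or Su(H). Mmp2, whose mean includes a set at background, is not among the genes counted. The medians over the 44 genes were 0.04, −0.02, 0.03 and 0.04.

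Upstream of JNK, 12 of 20 listed genes were measured and 10 passed the filter. wnd, a mixed-lineage kinase related to slpr and known for axon injury signalling, was higher in both Notch pathway stocks: it stood at 8.69 in spen, at 10.18 in E(spl), at 10.28 in Su(H) and at 9.04 in EGFR, against 8.59 in the control. E(spl) and Su(H) were 2.99-fold and 3.22-fold above the control, and spen was at the control level. The summed level of the 5 measured muscle markers was also high on these arrays, at 26.37 in spen, at 37.45 in E(spl), at 38.65 in Su(H) and at 28.97 in EGFR, against 26.58 in the control, with Act88F below the Bacillus controls on all of them. Its part in the wnd difference, and in that of Pvf2 below, was not tested. Tab2, the adaptor of the kinase Tak1, stood at 10.20 in spen and 9.10 in the control, with 8.86 to 9.29 in the other mutants. The others, such as msn, Mkk4, POSH and Ask1, stayed under 2-fold in all 4 mutants. All 3 measured antagonists (raw, alph and CYLD) did so too, with raw at −0.27 for spen, 0.71 for E(spl), 0.63 for Su(H) and 0.47 for EGFR.

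Of 19 listed targets of JNK and AP-1, 14 were measured, and they did not move one way. scaf, a target in the embryonic epidermis, stood at 8.42 in spen, at 6.47 in E(spl), at 10.63 in Su(H) and at 8.75 in EGFR, against 9.29 in the control. It was thus 7.08-fold lower in E(spl) and 2.53-fold higher in Su(H). Zasp52, a muscle and adhesion protein gene, was 4.35-fold lower in E(spl), at 10.18 and 12.30 in the control, and lay between 11.92 and 12.51 in the other mutants. Atf3, a leucine zipper factor that can pair with Jun, stood at 9.26 in spen, at 11.02 in E(spl), at 11.43 in Su(H) and at 10.69 in EGFR, against 10.43 in the control, so that spen was low as it was for puc. cbt, a zinc finger factor, was higher in E(spl) by 1.02. In Su(H) it differed by 0.80.

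Of the genes that act with the unmeasured Mmp1 on the extracellular matrix, Timp, the inhibitor of these enzymes, differed by 1.01 in spen as the mean of 2 sets, by −0.98 in E(spl), by 0.74 in Su(H) and by −0.67 in EGFR. Mmp2, singled out after its values were seen, has 2 sets and had a mean difference of 0.56 for spen, −0.35 for E(spl), −0.91 for Su(H) and −0.87 for EGFR. Only 1 of these sets, 1623299_at, was above background: it stood at 7.28 in spen, at 5.17 in E(spl), at 4.35 in Su(H) and at 4.51 in EGFR, against 6.16 in the control. By that set Mmp2 had a difference of 1.12 for spen, −0.99 for E(spl), −1.81 for Su(H) and −1.65 for EGFR. The other set was at 3.21 to 3.59 in the mutants and 3.31 in the control, below the Bacillus controls on every array, so that the means, by which Mmp2 was not counted as past 2-fold, understate the readable set.

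Among 10 wound response genes, 9 were measured and 5 or 6 passed the filter. Pvf2, a ligand of the growth factor receptor Pvr of blood cells, stood at 6.55 in spen, at 9.60 in E(spl), at 9.73 in Su(H) and at 7.85 in EGFR, against 7.97 in the control. It was thus 2.66-fold lower in spen, 3.11-fold higher in E(spl) and 3.39-fold higher in Su(H). Ddc, the dopa decarboxylase that is induced at epidermal wounds, was lower in Su(H) and EGFR, at 5.03 and 5.04, against 6.07 in the control. Duox, an oxidase that makes hydrogen peroxide, was at 4.75 in Su(H) and at 3.74, below the Bacillus controls, in the control, so its difference is at least 1.34-fold. The differences of cbt, Timp, Ddc and Duox past 2-fold were all within 2 pooled SDs of probe sets in their comparisons. drpr, the engulfment receptor, and Pvr itself stayed under 2-fold in all 4 mutants.

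The other MAP kinase genes served as a comparison branch, with 6 of 9 measured. p38c, one of the p38 kinases, was lower in EGFR, at 6.05 and 7.59 in the control, while spen, E(spl) and Su(H) stood at 7.16, 7.14 and 7.43. p38a differed by −0.88 in EGFR and by −0.24 to −0.04 in the others. lic, the kinase upstream of p38, and Dsor1, the kinase upstream of ERK, stayed under 2-fold in all 4 mutants.

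**Figure D4:**
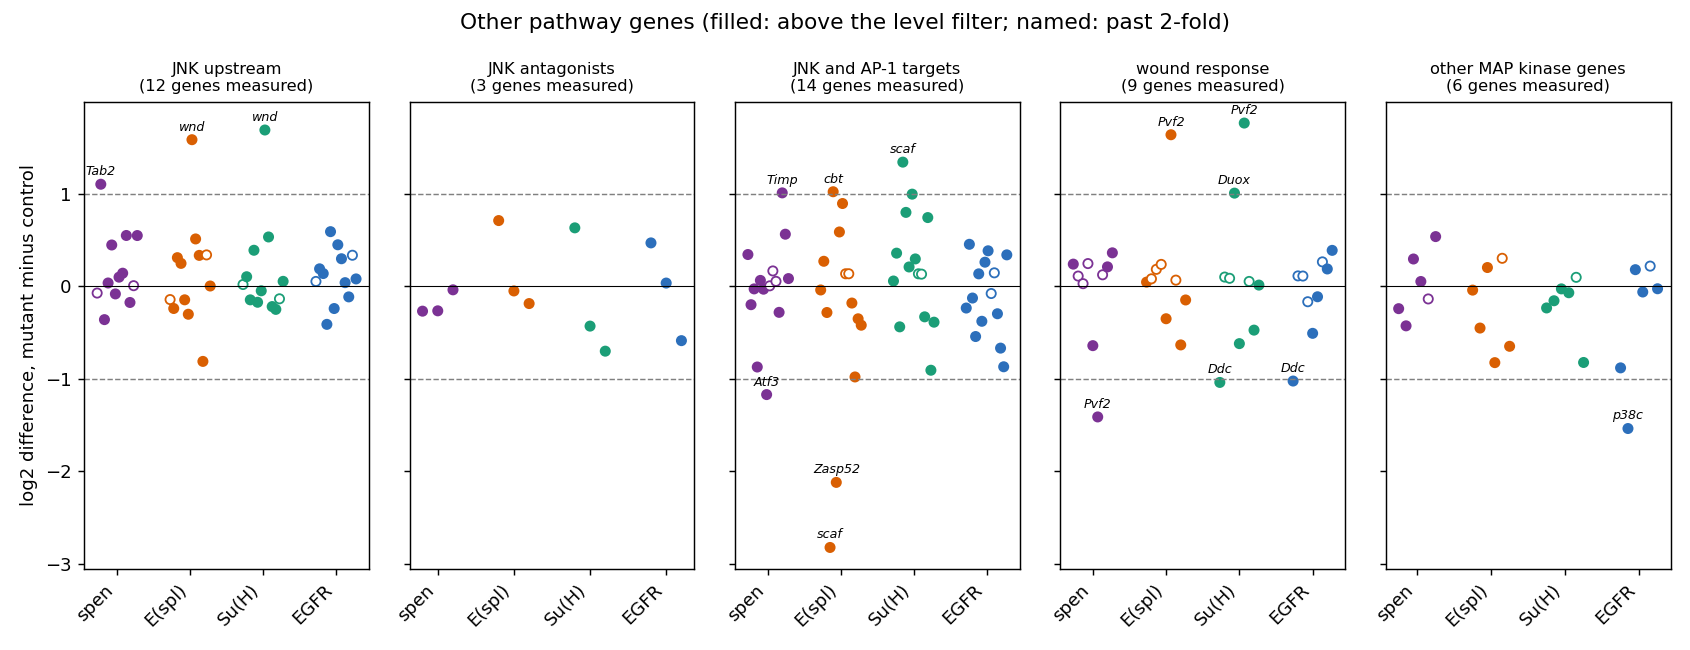
Log2 difference (mutant minus control) of the other measured pathway genes in 5 lists, with 1 point for each gene and mutant array, filled where the gene passed the level filter and named where it was also past 2-fold. Most points lie between the 2-fold lines, with scaf (−2.82) and Zasp52 (−2.12) in E(spl) lowest and Pvf2 (1.76) and wnd (1.69) in Su(H) highest.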

How the data were processed

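RNA levels were measured on Affymetrix Drosophila arrays, 1 for each of 5 stocks. The authors deposited 1 table of 18952 probe sets with values of 2.54 to 14.74, used here as log2 levels. RMA and GCOS are named in the submitters' processing notes, with their roles and versions not given in the sources used here. RMA would remove a shift common to most genes.

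From these values, 183 manufacturer controls were set apart and genes were named from the platform annotation: 1 gene for 13647 probe sets, several for 402 and none for 4720. Sets with several or none were not named. Differences were mutant minus control, averaged over the probe sets of a gene. There were no replicates, hence no p-values. The gene table (Release 6) gave only names and gene order. Genes were named by rule: every member, and up to 4 genes per further list and mutant past 2-fold. The further lists and the members were chosen with earlier results of these data known. Python 3.11.15, numpy 2.4.6 and pandas 2.3.3 were used.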

Additional observations from a re-analysis of the deposited data

How the results depend on the processing

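No paired analysis was possible because each group has 1 array. The count of member genes past 2-fold in spen was 1 (puc) after renewed quantile scaling and 2 (puc and wgn) with the averaged other 3 mutants as reference, in place of 0. With that reference the count in E(spl) was 1 (wgn), in place of 0; the low EGFR level of wgn is part of that average. With it slpr, not past 2-fold in any setting, was at −0.08 in spen and −0.24 in EGFR. In EGFR the count was 2 (egr and wgn), in place of 1, with the brightest probe set of each gene, and also 2 without probe sets below the Bacillus controls on all arrays, a setting chosen after seeing the data. Both leave out the dim egr set. The other counts of member genes were the same as deposited under these settings, no level filter, a filter at 6 and array medians subtracted. The median over the 8 genes in E(spl), 0.14, was 0.48 with the brightest probe sets, 0.31 without the sets below the Bacillus controls, 0.22 with array medians subtracted and 0.040 with the other mutants as reference. In EGFR, at 0.17, it was 0.27 with the brightest sets and −0.032 with the other mutants as reference. That reference also gave 0.12 in spen, in place of 0.19, and −0.017 in Su(H), in place of 0.15. Under it the 4 differences of each gene sum to 0 by construction, so its medians cannot judge those against the control. The other medians stayed within 1.5 times. Renewed quantile scaling moved the share of higher among all genes past 2-fold in spen to 28.8%, against 15.6% as deposited. Subtracting array medians shifted the median of all genes by 0.07 in spen and 0.08 in E(spl) and turned the sign of 0 of 8 member differences in each mutant. The number of arrays limits the precision.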
